A study of Mus musculus with 4 samples.

Results

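Fibroblast growth factor (FGF) signalling was followed through 10 genes in mRNA-seq of cultured mouse vascular smooth muscle cells (VSMCs). The genes were chosen by symbol and comprise the ligands *Fgf1*, *Fgf2* and *Fgf7*, the receptors *Fgfr1*, *Fgfr2* and *Fgfrl1*, the adaptor *Frs2*, and the Sprouty genes *Spry1*, *Spry2* and *Spry4*. All 10 were among the 48587 gene symbols of the count table, and all 10 passed the filter on low counts that left 18916 genes for testing.

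The cells were primary VSMCs that grew out of the descending aorta of young adult C57BL/6J mice, after the adventitia had been stripped and the endothelium scraped away. Every culture was transduced with a lentivirus. The group shCTR received a control hairpin against a plant microRNA, and the group shMettl14 received a single hairpin against *Mettl14*, which encodes the RNA-binding partner of Mettl3 in the enzyme complex that writes N6-methyladenosine (m6A) on mRNA. Each group had 2 libraries, 1 carrying the letter A and 1 the letter B. Neither the labels nor the methods say what a letter stands for, so the p-values measure only the spread between these libraries, which may be technical. With 1 hairpin, an effect of *Mettl14* loss and another effect of this hairpin cannot be told apart.

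FGFs are secreted or stored signals that bind receptor tyrosine kinases together with heparan sulfate. The activated receptor phosphorylates the docking protein Frs2, which recruits Grb2, Sos and Shp2 and so turns on the Ras and ERK cascade, and ERK induces the Sprouty proteins that restrain the same cascade. In the arterial wall, Fgf2 is held in the matrix and is known as a mitogen for VSMCs, whose dedifferentiation from a contractile to a proliferative state is also known to involve Fgfr1.

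Totals ran from 114343653 to 124815868 counts, so that 3 counts, the most that a count of 0 would allow, were at most 0.0262 CPM (counts scaled to a common library size). Levels are given in CPM normalized by trimmed mean of M-values (TMM). *Mettl14* was at 18.0 and 19.9 CPM in shCTR A and B and at 4.598 and 4.37 CPM in shMettl14 A and B, which is 23.6% of the shCTR mean. Among defining markers of the labelled cell type, the 9 smooth muscle genes summed to 8602 and 8768 CPM in shCTR and to 6403 and 7709 CPM in shMettl14, while *Myocd*, the smooth muscle coactivator, ranged only from 0.546 to 7.10 CPM. Endothelial markers were also present, with 6 of 8 above 10 CPM in every library. The 8 endothelial genes summed to 1919 and 4067 CPM in shCTR A and B and to 1811 and 2522 CPM in shMettl14 A and B. The 8 leukocyte markers summed to between 11.2 and 15.3 CPM, 7 adventitial fibroblast markers to between 505 and 670 CPM, 8 striated muscle markers to between 12.0 and 34.1 CPM, and 6 epithelial markers, nearly all *Krt18*, to between 43.1 and 402 CPM. In such bulk libraries, fewer cells of a type and less RNA per cell cannot be told apart.

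*Fgf2* was the member that differed most between the hairpins. It was at 67.6 CPM in shCTR A and 101 CPM in shCTR B, and at 29.0 CPM in shMettl14 A and 41.4 CPM in shMettl14 B. Both shMettl14 libraries lay below both shCTR libraries, and the B library was the higher of each group. The remaining level was 42.9% of control within letter A and 40.9% within letter B.

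The fitted log2 fold change of *Fgf2* was -1.26 ± 0.31 (SE, n = 2 per group), with a 95% interval from -2.06 to -0.46. Its unadjusted p was 0.0098 in edgeR's quasi-likelihood test and ranked 25th among the 18916 genes, and its fold change was the 10th largest fall among the 9098 genes with a mean of at least 10 CPM. After Benjamini-Hochberg adjustment over all genes, edgeR gave *Fgf2* an adjusted p of 0.99997. No gene reached an adjusted p under 0.05 in that test, a background of 0%, while 191 genes were lower and 124 higher at an unadjusted p under 0.05. *Mettl14* itself, at a log2 fold change of -2.08 ± 0.25 (SE), had the lowest unadjusted p of all genes and an edgeR adjusted p of 0.99997. DESeq2 called 5 genes, with *Mettl14* among them and no FGF member. *Fgf2* was thus lower by more than the difference between the libraries of either group, but in this fit, which has no term for the letter, the difference did not pass the correction for all genes. An exact permutation test of 2 against 2 libraries cannot go below p = 0.333.

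Summed endothelial, smooth muscle and adventitial fibroblast markers were highest in shCTR B, as *Fgf2* was. Summed smooth muscle markers were lower in both shMettl14 libraries, as *Fgf2* was. The epithelial sum, at 79.2 and 402 CPM in shCTR A and B and 43.1 and 280 CPM in shMettl14 A and B, was highest in shCTR B and lower with the hairpin within both letters, and the endothelial sum was too. The striated muscle sum was 34.1 and 19.2 CPM in shCTR A and B and 12.0 and 20.1 CPM in shMettl14 A and B. The median log2 fold change of its 7 tested genes was -1.63. Of them, 3 (*Myh4*, *Ckm* and *Actn3*) were lower at an unadjusted edgeR p under 0.05, beside 1.01% of all tested genes. Among the 9 smooth muscle genes, with a median of -0.31, *Acta2* alone had a p under 0.05 in that test. The median was -2.05 for the 3 tested epithelial genes, -0.21 for the 8 endothelial genes and 0.07 for the 7 adventitial fibroblast genes, with none under that p. The part of these markers in the *Fgf2* difference was not tested.

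**Figure D1:**
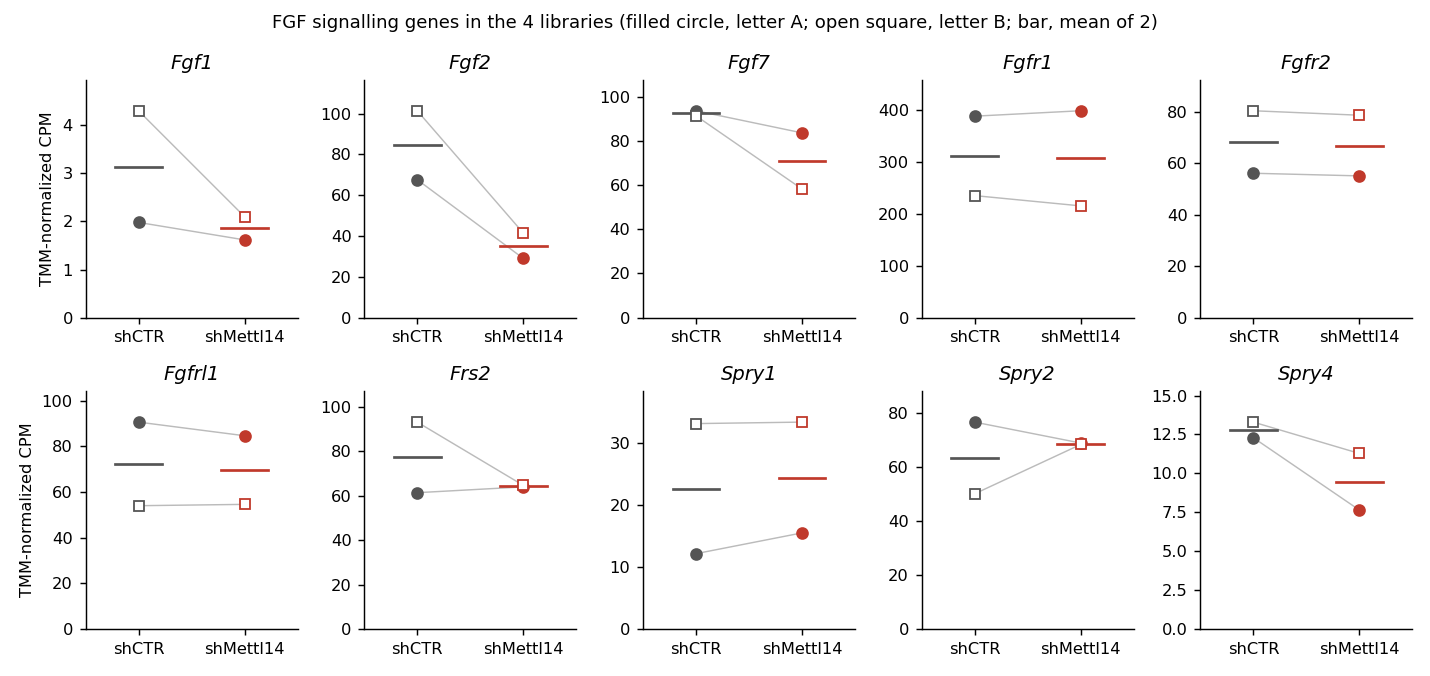
Level of each of the 10 FGF signalling genes in TMM-normalized CPM (vertical axis, linear from 0, a separate scale for each gene) in the shCTR and shMettl14 libraries. Filled circles are letter A, open squares letter B, short bars the mean of 2 libraries and grey lines join libraries of 1 letter. *Fgf2* falls along both lines to separate groups, whereas *Fgfr1*, *Fgfr2*, *Fgfrl1* and *Spry1* run nearly level with the letters apart.

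*Fgf2* lies on chromosome 3 of GRCm38 from 37348346 to 37410108 on the plus strand, in 5 merged exon blocks (GENCODE M21). Its 3′ end overlaps *Nudt6*, a nudix hydrolase gene on the minus strand from 37404910 to 37420211 that is known as the *Fgf2* antisense gene. Of the exonic bases of *Fgf2*, 9.44% lay under an exon on the other strand and 3.76% under an exon of *Gm43439* on the same strand. The libraries were made with a stranded kit, but the use of strand in counting was not given in the sources used here, so reads in the shared part cannot be assigned with certainty. *Nudt6* had 133 and 105 counts in shCTR A and B and 221 and 129 in shMettl14 A and B, against 7682, 10956, 3444 and 5391 counts of *Fgf2* in the same order. Per kb of exon, *Nudt6* was at 0.698, 0.580, 1.11 and 0.591 CPM, against 9.97, 14.96, 4.28 and 6.11 CPM for *Fgf2*, in the same order. As counted, the antisense gene was thus less abundant than *Fgf2* in every library. *Nudt6* has 1677 exonic bases against 6782 for *Fgf2*, so the shared part is a larger share of *Nudt6* and makes its level less certain. The log2 fold change of *Nudt6*, 0.41 ± 0.48 (SE, n = 2 per group), had an unadjusted p of 0.43 in edgeR.

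Because Mettl14 belongs to the m6A writer, the letters most often methylated in mRNA, GGACT on the sense strand, were counted in the transcript of each gene. They occur by chance in many transcripts, and no methylation was measured in these libraries. The authors profiled m6A separately, by immunoprecipitation of RNA from VSMCs with these hairpins, and those data were not used here. The GENCODE transcript of *Fgf2* held 6 of them over 5973 bases, or 1.005 per kb against a median of 1.05 per kb over 14324 tested coding genes. Its 6 windows are shown because *Fgf2* carried the largest difference. Capitals mark GGACT, and each window is written 5′ to 3′ along the transcript.

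Fgf2 5′ UTR, chr3:37348727-37348751 (+): ggcgggacacGGACTgggaggctgg
Fgf2 3′ UTR, chr3:37405470-37405494 (+): aaaacctctcGGACTgctgtgtctg
Fgf2 3′ UTR, chr3:37406048-37406072 (+): atagaacttgGGACTcactaacacc
Fgf2 3′ UTR, chr3:37406184-37406208 (+): ttccatggcaGGACTtttatgtcca
Fgf2 3′ UTR, chr3:37407614-37407638 (+): caagccttgaGGACTtcaatttgtt
Fgf2 3′ UTR, chr3:37408650-37408674 (+): gctaggatctGGACTtgtaaataca

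The 3′ UTR held 5 of the 6 and the coding sequence none. Their A lay between 685 and 3865 bases past the stop codon in the 3′ UTR, so that none was within 200 bases of it. Of all tested coding genes, 39.8% had at least 1 GGACT within 200 bases of the stop codon.

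*Spry2*, on chromosome 14 from 105891947 to 105896819 on the minus strand, had the densest set among the members, with 7 GGACT in 2087 bases, or 3.35 per kb, which is the 98.8th percentile of the tested coding genes. Its windows, with the same capitals, are given because no other member had so many per kb.

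Spry2 5′ UTR, chr14:105896743-105896767 (-): caacggtggaGGACTgggttccaaa
Spry2 5′ UTR, chr14:105896689-105896713 (-): cttggaagttGGACTgaagcagagt
Spry2 5′ UTR, chr14:105896647-105896671 (-): gtttgcatcaGGACTggatttattt
Spry2 coding, chr14:105893200-105893224 (-): acaggtgtgaGGACTgcggcaagtg
Spry2 coding, chr14:105893146-105893170 (-): ccctgccgtcGGACTggatctgtga
Spry2 coding, chr14:105893090-105893114 (-): attgactatgGGACTtgtgtgtgct
Spry2 3′ UTR, chr14:105892177-105892201 (-): atttccctttGGACTtgatgtatat

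Between these, *Spry1* had 2.16 GGACT per kb and *Fgfr1* 1.59, and the remaining members had from 0.421 to 1.29 per kb. *Fgf1*, *Fgf7*, *Fgfr1* and *Spry1* held at least 1 within 200 bases of the stop codon, which is 4 of 10 members beside the 39.8% of all genes. Whether GGACT density goes with the change in level was not tested.

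The *Fgf2* promoter, from 250 bases before to 50 after the start in RefSeq (GRCm38.p6), is GC-rich at 62.7% against a median of 52.7% over 32851 promoters of that length. It is shown because *Egr1*, a growth-factor-induced transcription factor gene that is described with the ERK targets, encodes a protein known to bind GCGGGGGCG. That word stands once in the window and overlaps 1 copy of the SP1 word GGGCGG, and capitals mark the joined stretch.

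Fgf2 promoter, chr3:37348403-37348702 (+): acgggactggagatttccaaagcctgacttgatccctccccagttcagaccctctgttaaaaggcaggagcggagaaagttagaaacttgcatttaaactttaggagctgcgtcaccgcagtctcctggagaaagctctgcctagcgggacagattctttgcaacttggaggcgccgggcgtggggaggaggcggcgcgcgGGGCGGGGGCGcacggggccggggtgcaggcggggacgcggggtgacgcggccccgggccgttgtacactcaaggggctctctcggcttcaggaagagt

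On either strand, GCGGGGGCG was present in 2.91% of all promoters and GGGCGG in 35.7%. RefSeq promoters were matched for 7 members, all but *Fgf1*, *Fgfr1* and *Spry4*. Besides *Fgf2*, *Fgfrl1* held the EGR1 word once, with 4 SP1 words and 1 ETS word CCGGAAG, which was in 8.86% of all promoters. *Frs2* had 2 SP1 words and 1 ETS word, *Spry1* had 1 SP1 word, and *Fgf7*, *Fgfr2* and *Spry2* had none of the words searched. The second EGR1 word searched, GCGTGGGCG, was in 0.612% of all promoters and in none of the 7 windows. The CRE word TGACGTCA, present in 1.79% of all promoters, was not found either. Nor were the AP-1 word TGACTCA, in 5.202% of all promoters, and the CArG box, in 1.63%. The TATA word TATAAA, in 13.6% of all promoters, was likewise in none of the 7.

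Of the other ligands, *Fgf7* (chromosome 2, 126034658 to 126091185), the keratinocyte growth factor made by mesenchymal cells, was at 93.6 and 91.3 CPM in shCTR A and B and at 83.6 and 58.2 CPM in shMettl14 A and B. Both shMettl14 libraries were below both shCTR libraries, but the gap in letter A was small beside the gap between the shMettl14 libraries. Its log2 fold change was -0.38 ± 0.25 (SE, n = 2 per group), with a 95% interval from -1.01 to 0.25 and an unadjusted edgeR p of 0.18.

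*Fgf1*, the acidic FGF that lacks a signal peptide and binds every FGF receptor, was the scarcest member. It had 1.98 and 4.31 CPM in shCTR A and B and 1.62 and 2.10 CPM in shMettl14 A and B, on 192 to 465 counts. The groups overlapped, since shMettl14 B was above shCTR A. The log2 fold change was -0.76 ± 0.50 (SE, n = 2 per group), with a 95% interval from -2.06 to 0.54. It rested largely on shCTR B, since it was -0.096 without that library and -1.21 without shCTR A.

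Per length of exon, the ligand transcripts were mainly *Fgf7*, *Fgf2* and *Fgf23*, which encodes the endocrine phosphate-regulating FGF. In CPM per kb of exon, *Fgf7* made up 53.4% and 44.8% of the summed level of 20 ligand genes in shCTR A and B and 56.1% and 46.4% in shMettl14 A and B. *Fgf2* made up 18.5% and 23.8% in shCTR and 9.33% and 15.8% in shMettl14. *Fgf23* made up 17.01% and 18.4% in shCTR and 21.6% and 16.8% in shMettl14. *Fgf2* was thus the second ligand in both shCTR libraries and the third in both shMettl14 libraries. With the longest transcript as the length it was second in shMettl14 B as well, at 6.94 CPM per kb against 6.49 for *Fgf23*. The summed ligand level was 53.9 and 62.7 CPM per kb in shCTR and 45.8 and 38.6 CPM per kb in shMettl14.

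**Figure D2:**
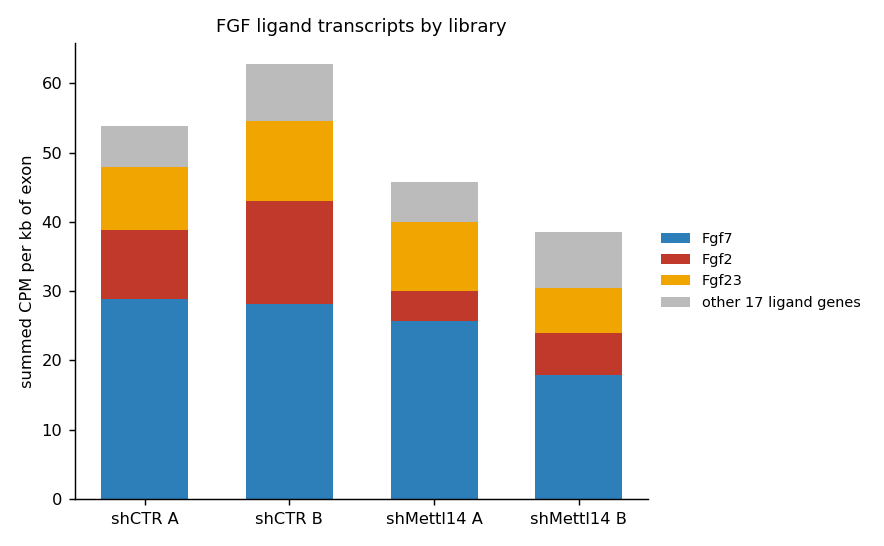
Summed level of FGF ligand transcripts in TMM-normalized CPM per kb of exon (vertical axis, linear from 0) in the 4 libraries, divided into *Fgf7*, *Fgf2*, *Fgf23* and 17 other ligand genes. The *Fgf2* part is smaller in both shMettl14 libraries, at 4.28 and 6.11 CPM per kb, than in shCTR, at 9.97 and 14.96.

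Among the receptors, *Fgfr1* (chromosome 8, 25513654 to 25575718) was at 387 and 235 CPM in shCTR A and B and at 398 and 215 CPM in shMettl14 A and B. The libraries separated by letter and not by hairpin, with both A libraries above both B libraries. The log2 fold change for the hairpin was -0.02 ± 0.40 (SE, n = 2 per group), with a 95% interval from -1.06 to 1.02. In this fit, which has no term for the letter, the interval is wide enough to hold a halving or a doubling. The near equality of the means therefore does not show that *Fgfr1* was unaffected.

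*Fgfr2* was at 56.1 and 80.3 CPM in shCTR A and B and at 55.0 and 78.6 CPM in shMettl14 A and B, close to equal within each letter. Its log2 fold change was -0.03 ± 0.29 (SE, n = 2 per group), with a 95% interval from -0.79 to 0.73. The annotated exons of *Fgfr2* share 3.04% of their bases with *Ctbp2* on the same strand. Per kb of exon, *Fgfr1* made up 87.0% and 74.8% of the 4 signalling receptors in shCTR A and B and 87.4% and 73.1% in shMettl14 A and B, while *Fgfr2* made up 12.0%, 24.5%, 11.6% and 25.6% in the same order. Receptor makeup thus followed the letter, and *Fgfr3* and *Fgfr4* together held only the small remainder.

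*Fgfrl1* (chromosome 5, 108692382 to 108706924), a receptor-like protein that binds FGFs but has no tyrosine kinase domain, was at 90.6 and 54.0 CPM in shCTR A and B and at 84.6 and 54.6 CPM in shMettl14 A and B. It resembled *Fgfr1* in that both A libraries were above both B libraries. Its hairpin log2 fold change was -0.05 ± 0.36 (SE, n = 2 per group), with a 95% interval from -0.98 to 0.87.

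*Frs2* (chromosome 10, 117069427 to 117148534), the docking protein through which FGF receptors reach Ras, was at 61.4 and 93.2 CPM in shCTR A and B and at 64.0 and 64.7 CPM in shMettl14 A and B. Only shCTR B stood apart, and the within-letter ratios went opposite ways, at 0.06 in A and -0.53 in B on the log2 scale. The log2 fold change was -0.26 ± 0.26 (SE, n = 2 per group), with a 95% interval from -0.94 to 0.41. Summed smooth muscle, endothelial, adventitial fibroblast and epithelial markers were also highest in shCTR B, and their part in this value was not tested.

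The Sprouty genes, the feedback inhibitors, gave no shared direction. *Spry1* was at 12.1 and 33.1 CPM in shCTR A and B and at 15.5 and 33.3 CPM in shMettl14 A and B. The B libraries had more than the A libraries in both groups, and the hairpin log2 fold change was 0.11 ± 0.60 (SE, n = 2 per group), with a 95% interval from -1.44 to 1.66. *Spry1* lies at 37639947 to 37644598 on chromosome 3, downstream of *Fgf2*, and 24.4% of its exonic bases are covered by *Gm42922* on the other strand.

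*Spry2* was at 76.5 and 49.996 CPM in shCTR A and B and at 68.8 and 68.3 CPM in shMettl14 A and B. Both shMettl14 values lay between the shCTR values, and the log2 ratio was -0.15 within A and 0.45 within B, so the letters went opposite ways. The log2 fold change was 0.12 ± 0.27 (SE, n = 2 per group), with a 95% interval from -0.57 to 0.80.

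*Spry4* was at 12.3 and 13.3 CPM in shCTR A and B and at 7.64 and 11.3 CPM in shMettl14 A and B. Both shMettl14 libraries were below both shCTR libraries, but shMettl14 B missed shCTR A by little. The log2 fold change was -0.44 ± 0.30 (SE, n = 2 per group), with a 95% interval from -1.20 to 0.33.

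Of the 10 members, 0 passed the adjusted threshold in edgeR or in DESeq2 without a term for the letter, and *Fgf2* alone had an unadjusted edgeR p under 0.05, beside 1.01% of all tested genes that were lower and 0.656% that were higher at that level. *Fgf2*, *Fgf7* and *Spry4*, 3 of 10, had both shMettl14 libraries below both shCTR libraries, beside 13.3% of all genes. In the opposite direction there were 0 of 10, beside 14.7%. Within both letters 5 members were lower (*Fgf1*, *Fgf2*, *Fgf7*, *Fgfr2* and *Spry4*), beside 27.7%, and *Spry1* alone was higher, beside 30% of all genes. The median log2 fold change of the members was -0.16, beside 0.01 over all tested genes. The means of the 3 member ligands were lower with the *Mettl14* hairpin. Without a term for the letter, *Fgf2* was the only one of the 10 whose 95% interval excluded 0.

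**Figure D3:**
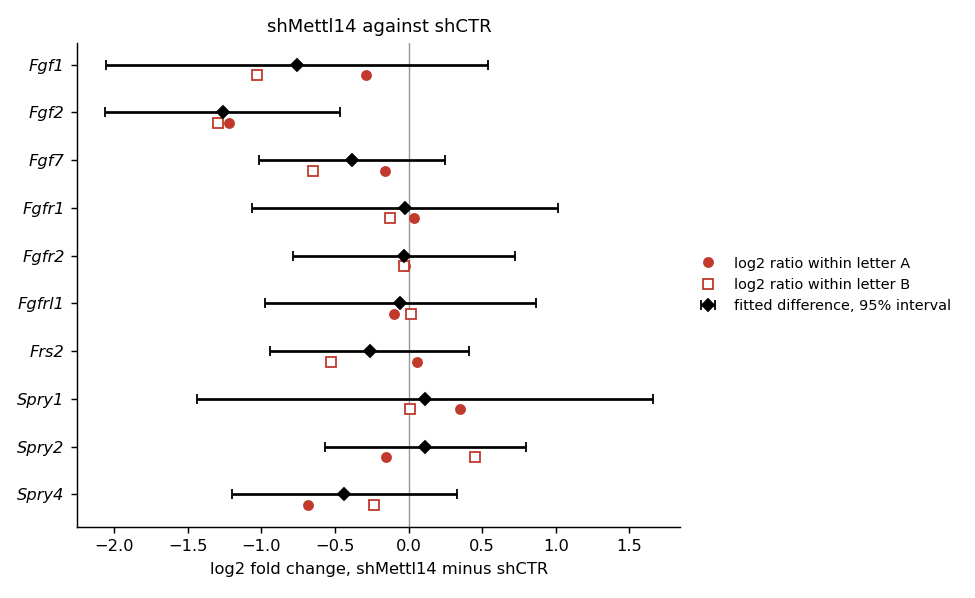
Log2 fold change of shMettl14 against shCTR (horizontal axis) for the 10 FGF signalling genes. Black diamonds and bars are the edgeR estimate and its 95% interval, and red symbols are the log2 ratios within letter A (circle) and letter B (square). The interval of *Fgf2* runs from -2.06 to -0.46 with both ratios inside it, at -1.22 and -1.29, and each of the other 9 intervals crosses 0.

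How far the members varied between replicates was examined through the letters. In a fit with a term for hairpin and one for letter, 5 of 10 members differed between B and A at an edgeR Benjamini-Hochberg adjusted p under 0.05, beside 15.6% of all tested genes. The hairpin counts above came from a fit without a letter term, so they cannot be set against this count. In the fit with both terms, given below as the replicate block, *Fgf2* was called for the hairpin as well. *Fgf2*, *Fgfr2* and *Spry1* were higher in B, beside 6.69%, and *Fgfr1* and *Fgfrl1* were higher in A, beside 8.95%.

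*Spry1* had the widest difference, from a mean of 13.8 CPM in A to 33.2 CPM in B, a log2 difference of 1.28 ± 0.17 (SE, n = 2 per letter) with an edgeR adjusted p of 0.00065. *Fgfr1* had a mean of 393 CPM in A and 225 CPM in B, a log2 difference of -0.81 ± 0.16 with an edgeR adjusted p of 0.0067. *Fgfrl1* went the same way by -0.69 ± 0.16, with an edgeR adjusted p of 0.014. These 3 genes thus moved with the letter by far more than with the hairpin.

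*Fgf2* was higher in B by 0.55 ± 0.16 on the log2 scale (edgeR adjusted p = 0.036), which is smaller than its hairpin difference. *Fgfr2* was higher in B by 0.52 ± 0.15 (edgeR adjusted p = 0.046). Neither passed without the hairpin term, where edgeR gave adjusted p-values of 0.53 for *Fgf2* and 0.092 for *Fgfr2*. The other 5 members did not pass, with log2 differences between -0.31 for *Spry2* and 0.75 for *Fgf1*, whose 95% interval ran from 0.09 to 1.42. *Myocd* and the smooth muscle, endothelial, adventitial fibroblast and epithelial sums were also higher in B than in A within each hairpin. The leukocyte sum was lower in B within each hairpin, and the striated muscle sum went opposite ways. The part of these markers in the differences between letters was not tested.

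**Figure D4:**
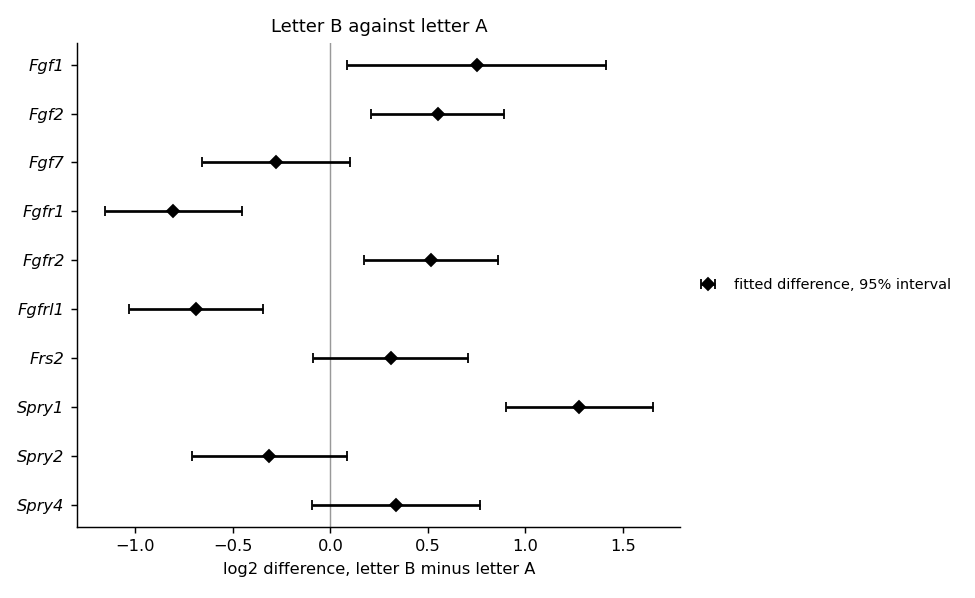
Log2 difference of letter B against letter A (horizontal axis) for the 10 FGF signalling genes, as the edgeR estimate (diamond) with its 95% interval (bar) from a fit with hairpin and letter. *Spry1* lies farthest to the right at 1.28 and *Fgfr1* farthest to the left at -0.81.

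Levels were compared between genes per kb of merged exon. Over the 4 libraries, the mean was 31.6 ± 5.39 CPM per kb for *Spry2* and 31.3 ± 9.86 for *Fgfr1* (SD, n = 4). *Fgfrl1* followed at 25.5 ± 6.98 and *Fgf7* at 25.1 ± 4.998, and these 4 genes overlapped one another. *Fgf2* at 8.83 ± 4.72, *Frs2* at 8.10 ± 1.71, *Spry1* at 8.09 ± 3.88 and *Fgfr2* at 6.54 ± 1.34 CPM per kb formed a second set with overlapping ranges. *Spry4* at 2.34 ± 0.519 and *Fgf1* at 0.458 ± 0.223 CPM per kb were each below the libraries of the gene above them. With the longest transcript as the length, *Fgfr1* came first at 61.2 CPM per kb and *Fgf2* fell behind *Fgfr2* and *Frs2*, at 10.03 CPM per kb. Of the 3 Sprouty genes, *Spry2* held 84.4% and 62.8% of the summed level per kb in shCTR A and B and 82.6% and 70.3% in shMettl14 A and B.

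Around the members, 90 other genes of the pathway were read in 6 lists. Of these, 89 were in the table and 79 were tested, and none passed the adjusted threshold in edgeR or DESeq2. *Hs2st1* alone, 1 of 79, had an unadjusted edgeR p under 0.05, beside 1.01% of all tested genes lower and 0.656% higher at that level. *Hs2st1* encodes the heparan sulfate 2-O-sulfotransferase, a modification that Fgf2 binds. It was at 66.8 and 66.5 CPM in shCTR A and B and at 46.5 and 45.8 CPM in shMettl14 A and B, a log2 fold change of -0.53 with an edgeR unadjusted p of 0.034 and an adjusted p of 0.99997. Its replicates were close, and both shMettl14 libraries lay below both shCTR libraries, as they did for 13.3% of all tested genes.

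Among 19 other ligands, 12 were tested, and their log2 fold changes had a median of -0.24 and ranged from -0.79 to 0.53. Their median ratio was -0.27 within A and 0.30 within B, so the letters differed in sign. *Fgf23* was at 16.6 and 20.9 CPM in shCTR A and B and at 18.0 and 11.8 CPM in shMettl14 A and B, and the groups overlapped. *Fgf14*, an intracellular FGF that binds sodium channels, was at 5.79 and 9.25 CPM in shCTR A and B and at 8.81 and 12.9 CPM in shMettl14 A and B. Its groups overlapped, while its log2 ratio was 0.60 within A and 0.48 within B. Of the 12 tested ligands, 3 were higher and 3 lower within both letters. *Fgf12*, of the same intracellular class, separated by letter, at 2.38 and 1.98 CPM in the A libraries and 9.21 and 7.80 CPM in the B libraries (log2 difference 1.97, edgeR adjusted p = 0.00026).

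Of 9 other receptors and cofactors, 6 were tested, with a median of 0.26. *Flrt2*, a membrane protein of the family that binds FGF receptors, was at 142 and 57.1 CPM in shCTR A and B and at 182 and 80.3 CPM in shMettl14 A and B. It was higher with the hairpin within each letter but lower in B than in A by 1.24 on the log2 scale, with an edgeR adjusted p of 0.00043. *Flrt3* had the same order at 7.18, 4.12, 11.8 and 6.70 CPM. *Fgfbp3*, which releases FGFs from the matrix, stayed between 3.68 and 4.31 CPM.

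The 21 heparan sulfate core proteins and enzymes were all tested, with a median of 0.04. *Hspg2*, the matrix proteoglycan perlecan, was at 2526 ± 88.3 CPM in shCTR and 2862 ± 879 CPM in shMettl14 (SD, n = 2). *Sulf1*, which removes 6-O-sulfate groups from heparan sulfate, was at 1044 ± 115 and 1071 ± 27.2 CPM. *Sdc3*, a syndecan, was at 384 ± 107 and 384 ± 105 CPM and was lower in B than in A (log2 difference -0.57, edgeR adjusted p = 0.033, and 0.083 without the hairpin term).

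The 19 adaptors and members of the ERK cascade had a median of -0.07. *Shc1*, an adaptor, was at 291 ± 9.30 CPM in shCTR and 290 ± 12.7 CPM in shMettl14 (SD, n = 2). *Ptpn11*, which encodes the phosphatase Shp2 that docks on Frs2, was at 269 ± 23.0 and 310 ± 40.6 CPM. *Mapk3*, which encodes ERK1, was at 269 and 250 CPM in shCTR A and B and at 200 and 189 CPM in shMettl14 A and B. Its groups did not overlap, and its log2 fold change of -0.42 ± 0.19 (SE, n = 2 per group) had an edgeR unadjusted p of 0.075.

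The 10 tested feedback inhibitors other than the Sprouty members had a median of 0.08. *Dusp4*, a phosphatase of nuclear ERK, was at 101 and 124 CPM in shCTR A and B and at 137 and 153 CPM in shMettl14 A and B, without overlap, at a log2 fold change of 0.36 ± 0.21 (SE, n = 2 per group) and an edgeR unadjusted p of 0.14. *Spred1*, which restrains Ras together with neurofibromin, was at 74.5 ± 8.61 and 84.7 ± 10.2 CPM (SD, n = 2). *Rasa1*, a Ras GTPase-activating protein, was at 70.4 ± 11.5 and 77.8 ± 2.69 CPM.

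The 11 FGF and ERK target genes had a median of -0.20, and none passed the test. *Ccnd1*, the cyclin that ERK signalling induces for entry into the cell cycle, was at 708 ± 97.4 CPM in shCTR and 824 ± 117 CPM in shMettl14 (SD, n = 2). *Egr1* was at 401 and 335 CPM in shCTR A and B and at 304 and 317 CPM in shMettl14 A and B, at a log2 fold change of -0.24 ± 0.20 (SE, n = 2 per group). *Ier3*, an immediate-early gene, was at 161 ± 77.0 and 132 ± 36.9 CPM and was lower in B than in A (log2 difference -0.80, edgeR adjusted p = 0.010). Over all 79 tested genes the median was 0.00, with 25 lower and 27 higher within both letters, beside 27.7% and 30% of all genes, so the pathway outside the members showed no common direction with the hairpin. Between the letters, 12 of the 79 passed the adjusted threshold in edgeR, 4 higher in B and 8 higher in A, beside 15.6% of all genes.

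**Figure D5:**
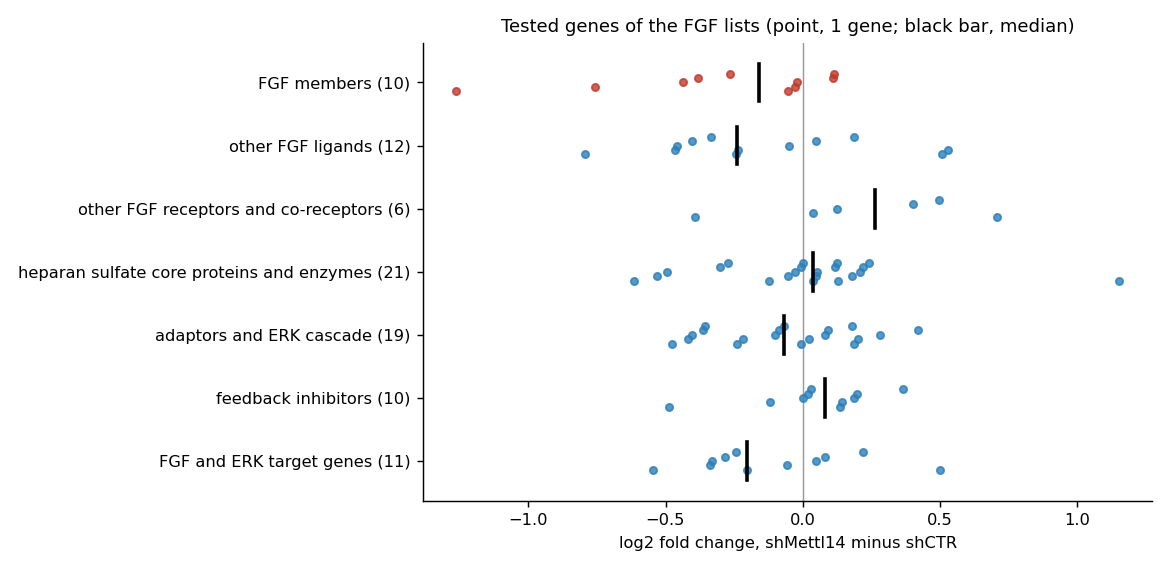
Log2 fold change of shMettl14 against shCTR (horizontal axis) for the tested genes of the members and of the 6 pathway lists, with the number of tested genes after each name. Each point is 1 gene, points are spread vertically only to be seen, and black bars are medians, which lie between -0.24 and 0.26. *Fgf2* is the leftmost point at -1.26.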

How the data were processed

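The authors sequenced poly-A RNA with a stranded kit, aligned it with STAR to mm10 (Ensembl 86) and used featureCounts. The table the authors deposited holds raw counts of 48587 genes in 4 libraries. Strand use and the treatment of multimapping reads in counting were not given in the sources used here.

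Of these genes, 18916 passed filterByExpr. edgeR 4.0.16 in R 4.3.3 was fitted to all of them (TMM, robust quasi-likelihood, Benjamini-Hochberg adjusted p under 0.05), with hairpin as the only term. The comparison of letters added a letter term. The standard error is the absolute log2 fold change over the square root of F. Within-letter ratios used log2 CPM with a prior count of 2. The count tests were run on simulated data with known effects larger than those of the members. The simulated dispersion was set below that of these libraries with or without a letter term, so the run does not show the power here. Lengths, positions and GGACT came from GENCODE M21, promoters from RefSeq, and motif words other than GGACT were sought on both strands.

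Members, lists and tests were chosen with earlier results of these data known. Besides members, *Mettl14* and *Nudt6*, the text names the 3 most abundant genes of each pathway list. It also names the 5 genes nearest to *Fgf2* in centred log2 CPM (mean of at least 10 CPM). *Hs2st1*, markers and overlapping genes were named after their values were seen. Alternatives were DESeq2 1.42.0, RLE and upper-quartile factors, other filters, a replicate block, each library left out, a prior count of 0.5 and the longest transcript.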

Additional observations from a re-analysis of the deposited data

How the results depend on the processing

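With 2 libraries per group, leaving out a library leaves 1 lone library assumed to vary like the other group, and the smallest differences change sign with the fit. RLE or upper-quartile factors and other filters on low counts left 0 members and 0 genes called. DESeq2 called 0 members and 5 genes, all lower, which were *Mettl14* at -2.09 and, named after their values were seen, *Atp6v1a*, *Cbfb*, *Chst12* and *Myh6*. With the letter as a replicate block, edgeR called 9 genes and 1 member, *Fgf2* (adjusted p = 0.019), with *Mettl14* at -2.08. The 95% intervals of *Fgf1* (-1.33 to -0.0074), *Fgf7* (-0.79 to -0.027) and *Spry4* (-0.89 to -0.028) also excluded 0 there, at adjusted p = 0.48, 0.46 and 0.46. Those of *Fgfr1* (-0.39 to 0.30), *Fgfr2* (-0.37 to 0.31) and *Fgfrl1* (-0.38 to 0.30) held 0 and were narrower than without the block. DESeq2 with the block called 118 genes and 1 member, *Fgf2* (adjusted p = 3.6e-08), with *Mettl14* at -2.09. Labels and methods do not say that a letter marks a shared culture. Deviations from the group means of same-lettered libraries correlated at 0.58, and the common dispersion was 0.18 without and 0.042 with the block.

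Leaving out each library gave 0 to 1 genes called (*Alb*, without shCTR B) and 0 members called, and a *Mettl14* log2 fold change from -2.15 to -2.01. *Fgf2* ran from -1.54 to -0.94 over these 4 fits, with its smallest fall without shCTR B. *Fgf1* ran from -1.21 to -0.096, *Fgf7* from -0.67 to -0.14 and *Spry4* from -0.74 to -0.18. The members whose sign turned were *Fgfr1* (-0.53 to 0.39), *Fgfr2* (-0.30 to 0.25), *Fgfrl1* (-0.41 to 0.37), *Frs2* (-0.53 to 0.064), *Spry1* (-0.54 to 1.01) and *Spry2* (-0.16 to 0.46). So did *Fgf12* (-1.54 to 1.04), *Flrt2* (-0.31 to 1.20), *Hspg2* (-0.17 to 0.47), *Ier3* (-0.71 to 0.32), *Rasa1* (-0.011 to 0.32), *Sdc3* (-0.31 to 0.32), *Shc1* (-0.047 to 0.039) and *Sulf1* (-0.067 to 0.15). Leaving out a library also left the letters unbalanced between the groups. The cause of the turned signs was not tested.

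Other settings turned *Sdc3* to 0.02 (upper-quartile), 0.0089 (no filter), 0.012 (at least 10 counts) and 0.00070 (replicate block in edgeR), and *Shc1* to 0.015, 0.0067 and 0.0057 in the first 3. Without the hairpin term, 3 members (*Fgfr1*, *Fgfrl1* and *Spry1*) differed between the letters. The letter comparison was not run with a library left out, since no residual degrees of freedom remain. With the longest transcript, *Fgfr1* had rank 1 per length, and *Fgf2* ranked 2 among ligands in shMettl14 B in place of 3, an alternative chosen after seeing the data.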

Other observations

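The 5 genes whose pattern over the 4 libraries was nearest to that of *Fgf2*, by Euclidean distance of centred log2 CPM among 9097 genes with a mean of at least 10 CPM, were *Ammecr1* (distance 0.21), *Gsr* (0.24), *Tsg101* (0.25), *Hspb7* (0.28) and *Plp2* (0.37). *Gsr*, which encodes glutathione reductase, was at 27.1 and 42.6 CPM in shCTR A and B and at 13.3 and 20.6 CPM in shMettl14 A and B. *Tsg101*, a subunit of the ESCRT-I sorting complex, was at 90.2 and 146 CPM in shCTR A and B and at 48.2 and 55.9 CPM in shMettl14 A and B. *Hspb7*, a small heat shock protein gene of muscle, was at 68.2 and 97.8 CPM in shCTR and at 29.0 and 51.2 CPM in shMettl14. *Ammecr1* was lower in level, at 13.7 and 17.4 CPM against 5.95 and 7.68 CPM, and *Plp2* was at 69.8 and 128 CPM against 43.0 and 52.9 CPM. With 4 libraries such likeness is a description only.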
